A study of Mus musculus with 168 samples.

Results

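The Mir181a-1, Mir181a-2 and Mir181b-2 loci are 3 of the 6 Mir181 hairpin genes in the table of cortex microRNAs. They were found as the rows whose transcript identifier carries one of those 3 gene names in the GENCODE vM21 annotation of GRCm38, and all 3 had a row among the 1626 transcripts and counts above 0 in all 168 libraries. The other loci of the family in the table were Mir181b-1, Mir181c and Mir181d, which are given here only for comparison. The 3 loci were chosen by their values in mutant cortex at the 2 older ages (the difference of Q175 from controls and the association with CAG length), so the differences between genotypes at those ages are descriptions and carry no test. Tests were made at 2 months, between the control genotypes, between sexes and between ages.

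The libraries hold small RNA from the cortex of C57BL/6 mice of 7 genotypes and 3 ages (2, 6 and 10 months), with 8 mice per genotype and age, 4 female and 4 male. The knock-in mice were heterozygous and carried 1 endogenous Htt allele and 1 allele with a human HTT exon 1 of 20, 80, 92, 111, 140 or 175 CAG repeats, named Q20 to Q175. WT mice were littermates of the Q20 line, and their CAG length was set to 7 in the fits. The methods describe the Q175 allele as a spontaneous expansion of the Q140 allele, so these lines are related. The labels give each library as a separate mouse. At 2 and 10 months, most mice of a line, age and sex share 1 code in the library name, read here as the cage. WT and Q20 mice of an age share these codes, and the codes differ between lines and between ages. Mutant line and cage thus cannot be told apart. Q20 and WT mice served as controls at 2 and 10 months and Q20 mice alone at 6 months. The methods do not list 6-month WT cortex. Of the 8 libraries with that label, 7 lay above the highest 6-month Q20 library for Mir181a-1. For Mir181a-2 and Mir181b-2 they overlapped Q20. These 8 libraries are given apart and were left out of the main fits.

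MicroRNAs are cut from a hairpin transcript, first by Drosha and then by Dicer, into a 5p and a 3p arm of which one is loaded on an Argonaute protein. The loaded arm finds its target mRNAs mainly through its seed, bases 2 to 8 from its 5′ end. The miR-181 family is abundant in brain and in lymphocytes, where it is known for setting the sensitivity of the T cell receptor, and its loci lie in clusters on different chromosomes that arose by duplication. A mature arm that is made by more than 1 locus cannot be assigned to a locus from its sequence.

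The hairpins are shown because the stretches that they share decide which reads can be told apart. In each of them the mature arms are in capitals, and the sequences are those of RefSeq for GRCm38.p6.
Mir181a-1: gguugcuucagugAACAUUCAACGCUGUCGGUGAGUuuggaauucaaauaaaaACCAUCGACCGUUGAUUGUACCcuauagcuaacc
Mir181a-2: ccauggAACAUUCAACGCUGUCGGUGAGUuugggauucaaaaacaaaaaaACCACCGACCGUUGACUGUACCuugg
Mir181b-2: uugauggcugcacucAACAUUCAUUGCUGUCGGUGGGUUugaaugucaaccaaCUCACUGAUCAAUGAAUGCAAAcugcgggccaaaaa

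The Mir181a-1 hairpin (transcript ENSMUST00000083631) spans 87 bases at chr1:137966455-137966541 on the plus strand of GRCm38, inside the processed transcript Gm4258 of the same strand and the lincRNA Gm26936 of the other strand, and it overlaps an exon of A430106G13Rik. The Mir181a-2 hairpin (ENSMUST00000083489) spans 76 bases at chr2:38852735-38852810 on the plus strand, inside Nr6a1, a nuclear receptor gene on the minus strand, and overlaps none of its exons. The Mir181b-2 hairpin (ENSMUST00000083644) spans 89 bases at chr2:38853830-38853918 on the plus strand, also inside Nr6a1, and overlaps an exon of Gm44144 on the minus strand. Mir181a-2 and Mir181b-2 thus form 1 cluster with 1019 bases between them. Mir181a-1 has Mir181b-1 as its neighbour with 97 bases between the hairpins. Mir181c and Mir181d lie on chromosome 8.

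The mature arms are shown with the seed in capitals, because all 5p arms of the family share that seed.
miR-181a-5p, made by Mir181a-1 and Mir181a-2: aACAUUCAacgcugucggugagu
miR-181b-5p, made by Mir181b-1 and Mir181b-2: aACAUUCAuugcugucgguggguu
miR-181c-5p: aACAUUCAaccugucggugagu
miR-181d-5p: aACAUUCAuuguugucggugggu
miR-181a-1-3p: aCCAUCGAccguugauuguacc
miR-181a-2-3p: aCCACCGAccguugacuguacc
miR-181b-2-3p: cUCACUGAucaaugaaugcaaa
miR-181b-1-3p: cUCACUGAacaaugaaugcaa

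Counted from 1 at the 5′ end, the 3p arms of Mir181a-1 and Mir181a-2 differ by U5C and U16C, of which the first lies in the seed. The 3p arms of Mir181b-1 and Mir181b-2 differ by A9U outside the seed. The 5p arms of miR-181a and miR-181b differ by A9U, C10U and A21G, and those of miR-181b and miR-181d by C12U. The longest stretch that the Mir181a-1 and Mir181a-2 hairpins share without a difference has 28 bases and holds the whole 5p arm, and that of Mir181b-1 and Mir181b-2 has 26.

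The deposited values are estimated counts, in which a read can be divided between transcripts. The count of Mir181a-1 was not a whole number in 167 of 168 libraries (99.4%), that of Mir181a-2 in 162 (96.4%) and that of Mir181b-2 in all 168. Among the 45 transcripts of the study's microRNA list whose symbol ends in -1, -2 or -3, 98.8% of the values above 0 were not whole, against 11.1% for the other 284 microRNAs of that list. The sums show which loci divide reads. Mir181a-1, Mir181a-2 and Mir181c together came within 0.05 of a whole number in 158 libraries (94.0%), although Mir181a-1 and Mir181a-2 did so in only 41 (24.4%). Mir181b-1, Mir181b-2 and Mir181d together did so in 161 libraries (95.8%). The other 18 sets of 3 loci of the family did so in 7 to 23 libraries (4.17 to 13.7%). These 2 sets are called read-sharing sets here. How much of 1 locus within a set is estimated and how much is counted cannot be read from the table, whereas the sum of a set can be read as whole reads in nearly every library.

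**Figure D1:**
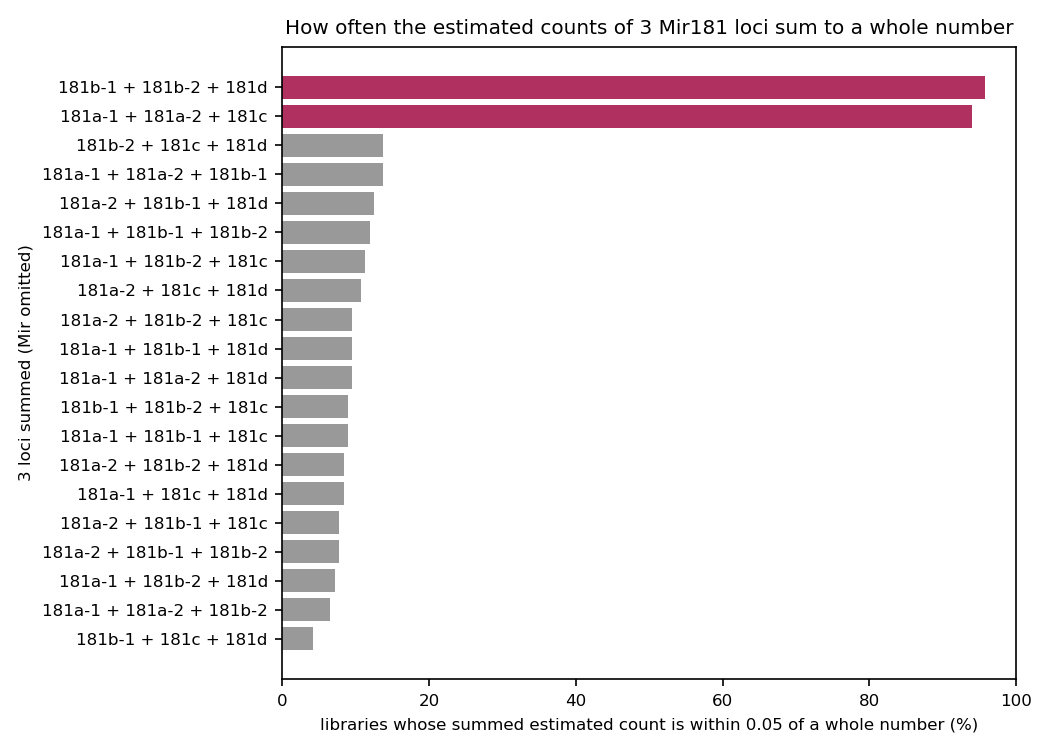
Share of the 168 libraries (x axis, %) in which the estimated counts of 3 Mir181 loci (y axis, all 20 sets of 3) sum to within 0.05 of a whole number. The 2 coloured sets reach 94.0 and 95.8%, and the other 18 stay between 4.17 and 13.7%.

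A library held between 2041741 and 11646287 estimated counts with a median of 4810487. Behind each value stood 15211 to 77164 estimated counts for Mir181a-1, 197600.1 to 1298263 for Mir181a-2 and 2164 to 12817 for Mir181b-2. Since reads are divided between loci, these counts do not give the error of a single locus. Of 10 microRNAs listed as neuronal markers, 9 were in the table, and their summed level lay between 79187 and 120655 CPM in the 160 libraries without 6-month WT. The 10 of 12 listed microRNAs of liver, muscle, blood, vessel and choroid plexus that were in the table summed to 10914 to 20688 CPM. The highest medians in that list were those of Mir126a at 9229 CPM (7239 to 11260) and Mir204 at 3112 CPM (1818 to 11350). Liver Mir122 had a median of 1.27 CPM and myeloid Mir223 of 10.6 CPM. Marker levels here and below are scaled by the library total alone. In such tissue, fewer cells of a type and less RNA per cell cannot be told apart.

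Levels are given as normalized counts, counts scaled to a common library total (CPM) with TMM factors, as mean ± SD of 8 mice. Over the 160 libraries without 6-month WT, Mir181a-2 had by far the highest estimated level of the 6 loci. Per 100 bases of hairpin, its mean level was 141311 CPM, 20.3 times that of Mir181a-1 at 6953 CPM. Mir181c (8363 CPM) and Mir181b-1 (7159.9 CPM) were near Mir181a-1 on this scale, and Mir181b-2 (1462 CPM) and Mir181d (1379 CPM) were lowest. Without scaling by length, the means were 107396 CPM for Mir181a-2, 6049 CPM for Mir181a-1 and 5728 CPM for Mir181b-1. The order of Mir181a-1 and Mir181b-1 thus depends on that scaling. Loci of a read-sharing set divide reads, so how much of their difference in level comes from that division cannot be told. This holds for Mir181a-2 and Mir181a-1. Mir181a-2 alone took between 8.18 and 14.4% of a library's counts with a median of 10.6%, and the 6 loci together took between 10.3 and 16.4%. Within a genotype and age, the CV between mice had a median of 7.32% for Mir181a-1, 7.72% for Mir181a-2 and 9.19% for Mir181b-2 over 20 groups.

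**Figure D2:**
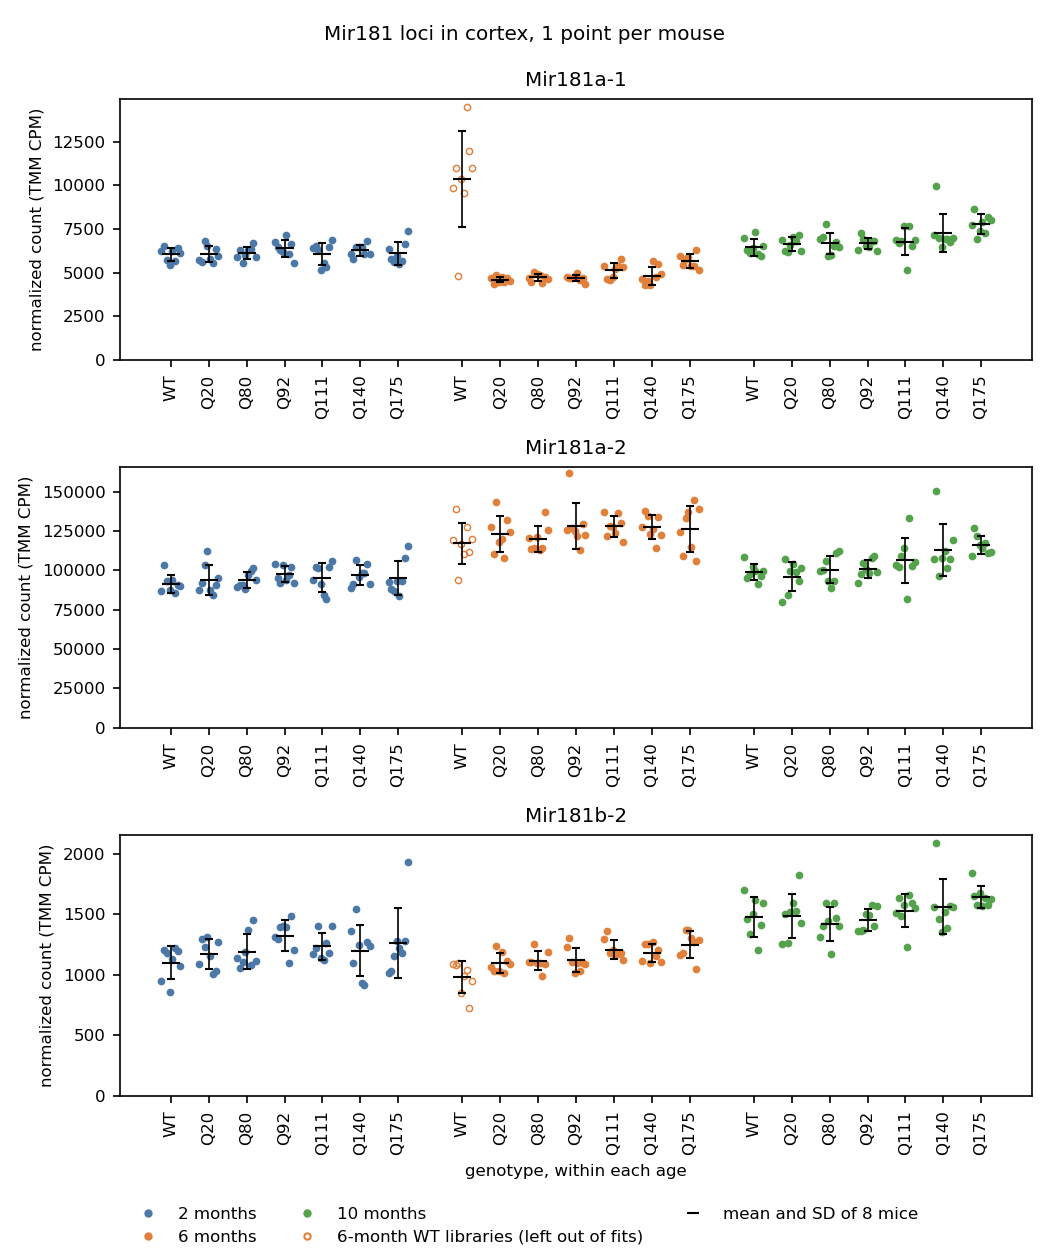
Normalized counts (y axis, TMM CPM, from 0) of the 3 loci in each mouse, by genotype within each age (x axis), with the mean and SD of 8 mice. At 10 months the 8 Q175 points of Mir181a-2 all lie above the highest control. This contrast chose the locus, and the share of all microRNAs that separate in this way is not given, so nothing is read from it. The open circles of 6-month WT libraries lie mostly far above the other 6-month points for Mir181a-1.

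At 2 months, the question was whether the loci already followed CAG length in young cortex. None of the 3 was called. Mir181a-1 averaged 6046 ± 391 CPM (WT), 6050.1 ± 468 (Q20), 6132 ± 348 (Q80), 6388 ± 488 (Q92), 6082 ± 629 (Q111), 6277 ± 328 (Q140), with 6105 ± 651 for Q175. In order of these means, each neighbour differed from the next by less than the larger of their SDs, for all 3 loci. The lowest, median and highest of the 16 control libraries were 5446, 6041 and 6827 CPM, and those of the 8 Q175 libraries 5487, 5852 and 7391 CPM.

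Mir181a-2 at 2 months averaged 91433 ± 5669.5 CPM (WT), 94070.5 ± 9429.5 (Q20), 93889 ± 5020.3 (Q80), 97474 ± 5105 (Q92), 95435 ± 9009 (Q111), 96839 ± 6234 (Q140), with 94984 ± 10939 for Q175. Controls ranged from 84473 over a median of 90600.3 to 112444 CPM, and Q175 from 83516 over 92646 to 115352 CPM. The groups overlapped throughout. Mir181b-2 at 2 months averaged 1101 ± 134 CPM (WT), 1173 ± 121 (Q20), 1189 ± 145 (Q80), 1323 ± 125 (Q92), 1236 ± 111 (Q111), 1199.7 ± 211 (Q140), with 1262 ± 287 for Q175. Its highest value, 1928 CPM, was in 1 Q175 male, and without that mouse the Q175 mean was 1166 ± 108 CPM (n = 7). In Q92, 5 of 8 libraries lay above the highest control of 1309 CPM.

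Association with Q as a numeric variable gave a log2 change per 100 CAG repeats of 0.014 (SE 0.029) for Mir181a-1, 0.028 (SE 0.029) for Mir181a-2 and 0.086 (SE 0.048) for Mir181b-2 at 2 months. By edgeR's quasi-likelihood test with Benjamini-Hochberg adjustment, the adjusted p was 0.999 for Mir181a-1, 0.895 for Mir181a-2 and 0.841 for Mir181b-2. Among the 327 microRNAs tested, 0.0% passed an FDR of 0.05 and 3.98% had an unadjusted p under 0.05, and DESeq2 also called 0. For Q175 against the 16 controls, the log2 difference was 0.0042 for Mir181a-1 (interval of ± 2 SE, -0.10 to 0.11), 0.026 for Mir181a-2 (-0.085 to 0.14) and 0.14 for Mir181b-2 (-0.034 to 0.31). The edgeR adjusted p was 0.987, 0.949 and 0.769 in the same order, again with 0.0% of 327 microRNAs called and 5.81% with an unadjusted p under 0.05. Without the high Q175 male, the value of Mir181b-2 was 0.035, the alternative being chosen after seeing the data.

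At 6 months, the level of Mir181a-1 was lower than at the other ages in every genotype but the WT libraries set apart, and Q175 stood highest. It averaged 4605 ± 169.7 CPM (Q20), 4726 ± 210.0 (Q80), 4695 ± 183 (Q92), 5126 ± 432 (Q111), 4822 ± 517.7 (Q140), with 5665 ± 390.2 for Q175. The Q20 libraries spanned 4368 to 4849 CPM with a median of 4606, and the Q175 libraries 5154 to 6312 CPM with a median of 5619.8. All 8 Q175 libraries thus lay above the highest Q20 library, as did 5 of 8 in Q111, 3 of 8 each in Q80 and Q140 and 1 of 8 in Q92. The share of all microRNAs that separate Q175 from Q20 in this way is not given here, so nothing is read from it. The step from Q111 to Q175 was the only one between neighbouring means, over the 3 loci and 3 ages, that exceeded the larger of their SDs.

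Mir181a-2 at 6 months averaged 122887 ± 11529 CPM (Q20), 119910.0 ± 8269.8 (Q80), 128203 ± 14426 (Q92), 127860.0 ± 6737 (Q111), 127410.0 ± 7735 (Q140), with 125952 ± 14637 for Q175. Its Q175 libraries, from 106195 over 128491 to 144796 CPM, reached both below and above those of Q20, from 108126 over 122159 to 143271 CPM. Mir181b-2 averaged 1095 ± 80.6 CPM (Q20), 1115 ± 77.8 (Q80), 1120.4 ± 97.8 (Q92), 1207 ± 78.8 (Q111), 1181 ± 73.9 (Q140), with 1249 ± 112 for Q175. Of its Q175 libraries, 5 of 8 lay above the highest Q20 library of 1236 CPM.

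The fitted log2 difference of Q175 from Q20 at 6 months was 0.31 (SE 0.055) for Mir181a-1, 0.11 (SE 0.080) for Mir181a-2 and 0.21 (SE 0.072) for Mir181b-2, beside a background of 2.77% of 325 microRNAs called in that comparison and a median of 0.031 (quartiles -0.081 and 0.16) over them. This contrast chose the loci, so nothing is read from it. At this age genotype and library code are mixed. No Q20 library carried an L code, the L number in the library name, of a Q175 library. The second code of the name was V in 3 of the 8 Q175 libraries and LB in all 8 Q20 libraries. That code was a covariate, so the fitted difference from Q20 rests mainly on the 5 LB libraries of Q175. Against the 6 Q80 libraries that share the L codes of the 5 LB libraries of Q175, the difference was 0.27 (SE 0.061) for Mir181a-1, 0.087 (SE 0.077) for Mir181a-2 and 0.19 (SE 0.070) for Mir181b-2. In Q175 the median of Mir181a-1 was 5787 CPM in 5 LB and 5453 CPM in 3 V libraries. In Q111 it was 4687 CPM in LB and 5366 CPM in V libraries, but there the 4 LB libraries were all from females and the 4 V libraries all from males, so code and sex cannot be told apart. The part of these codes in the values was not tested.

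At 10 months, Mir181a-1 and Mir181a-2 were highest in Q175, followed by Q140. Mir181a-1 averaged 6458 ± 478 CPM (WT), 6640.1 ± 394 (Q20), 6682 ± 591.3 (Q80), 6672 ± 340.2 (Q92), 6772 ± 785 (Q111), 7264 ± 1109 (Q140), with 7776 ± 562 for Q175. Controls spanned 5941 to 7318 CPM with a median of 6464, and Q175 spanned 6909.8 to 8674 CPM with a median of 7842. In Q175, 8 of 8 libraries lay above the control median and 6 of 8 above the highest control. Without the 1 Q140 female at 9958 CPM, the Q140 mean was 6879 ± 229 CPM (n = 7).

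Mir181a-2 at 10 months averaged 98841 ± 4950.2 CPM (WT), 96048 ± 9435 (Q20), 100434 ± 8571 (Q80), 101080.0 ± 5695 (Q92), 106394 ± 14356 (Q111), 112776 ± 16686 (Q140), with 116005 ± 5932 for Q175. The 16 controls spanned 80078 to 108139 CPM with a median of 99209, and Q175 spanned 109243 to 126960.0 CPM with a median of 115175. The 8 Q175 libraries and the 16 control libraries did not overlap, and 3 libraries each of Q111 and Q140, 2 of Q80 and 1 of Q92 also lay above all controls. The share of all microRNAs that separate in this way is not given here. Since this contrast chose the loci, nothing is read from the separation. Mir181b-2 averaged 1478 ± 162 CPM (WT), 1488 ± 183 (Q20), 1422 ± 141 (Q80), 1453 ± 89.7 (Q92), 1529 ± 136 (Q111), 1563 ± 227 (Q140), with 1642 ± 89.4 for Q175. Here 8 of 8 Q175 libraries lay above the control median of 1503 CPM but only 1 above the highest control of 1823 CPM.

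The fitted log2 difference of Q175 from controls at 10 months was 0.23 (SE 0.042) for Mir181a-1, 0.24 (SE 0.045) for Mir181a-2 and 0.13 (SE 0.062) for Mir181b-2. The median over 327 microRNAs was -0.0083 (quartiles -0.16 and 0.086), 12.2% of them were called, and since it chose the loci nothing is read from their place among them. For Q140 against the same controls, the value was 0.14 (SE 0.055) for Mir181a-1, 0.20 (SE 0.056) for Mir181a-2 and 0.071 (SE 0.070) for Mir181b-2. Without the high Q140 female it was 0.062 (SE 0.039), 0.13 (SE 0.048) and -0.0062 (SE 0.060) in the same order, so 1 library carried a large part of these values. For Q111 it was 0.040 for Mir181a-1, 0.12 for Mir181a-2 and 0.037 for Mir181b-2, and without 1 male that was low at these loci it was 0.090, 0.17 and 0.082. Q80 and Q92 lay between -0.065 and 0.044 at all 3 loci. These comparisons share their control mice. The summed neuronal markers were lower in Q175 at this age, with a median of 101393 CPM (94345 to 108524) beside 112269.9 CPM in Q20 (101204 to 120655) and 109816 CPM in WT (104134 to 115525), whereas the summed markers of other cells spanned 11604 to 13274 CPM in Q175, 11875 to 19385 CPM in Q20 and 11899.9 to 14786 CPM in WT. Their part in the differences was not tested.

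Per 100 CAG repeats, the fitted log2 change at 6 months was 0.13 (SE 0.032) for Mir181a-1, 0.033 (SE 0.036) for Mir181a-2 and 0.10 (SE 0.033) for Mir181b-2, where 2.75% of 327 microRNAs were called. At 10 months it was 0.13 (SE 0.029) for Mir181a-1, 0.15 (SE 0.031) for Mir181a-2 and 0.080 (SE 0.034) for Mir181b-2, where 8.84% of 328 were called. Without the Q175 mice, the value of Mir181a-1 was 0.037 (SE 0.036) at 6 months and 0.092 (SE 0.038) at 10 months. That of Mir181a-2 was 0.14 (SE 0.042) at 10 months without them.

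Since reads are divided within a set, each difference was set beside that of the sum, an alternative chosen after seeing the data. At 6 months the sum of Mir181a-1, Mir181a-2 and Mir181c differed between Q175 and Q20 by 0.069 (SE 0.075) on the log2 scale, where Mir181a-1 alone differed by 0.31. The sum of Mir181b-1, Mir181b-2 and Mir181d differed by 0.029 (SE 0.057), where Mir181b-2 alone differed by 0.21. Both sums differed by less than their SE, and the other loci of the sets differed by 0.045 (Mir181b-1), -0.013 (Mir181c) and 0.058 (Mir181d). Of Q175 libraries, 5 of 8 lay above the Q20 median in the first sum and 4 of 8 in the second. At 10 months the first sum differed by 0.22 (SE 0.043), close to Mir181a-1 and Mir181a-2 alone, and all 8 Q175 libraries lay above all 16 controls, with 124609 to 144144 CPM against 93424 to 123445 CPM. Mir181a-1 and Mir181a-2 were chosen by this contrast, so nothing is read from that separation. The second sum differed by 0.11 (SE 0.049), with 3 of 8 Q175 libraries above the highest control. At 2 months both sums differed by 0.030 (SE 0.058 and 0.056), with an edgeR adjusted p of 0.919 for both.

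**Figure D3:**
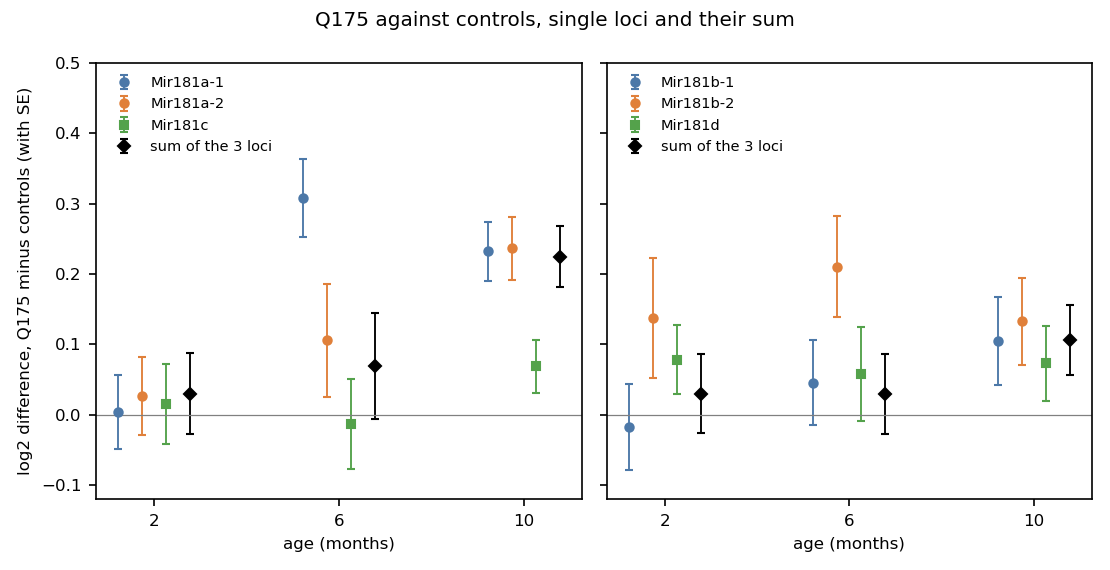
Fitted log2 difference of Q175 from controls with its SE (y axis) at 2, 6 and 10 months (x axis) for the single loci of the 2 read-sharing sets and for the sum of each set (black diamonds). At 6 months Mir181a-1 lies at 0.31 and its set at 0.069, while at 10 months they lie at 0.23 and 0.22.

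The shares of a set differed between the ages. Mir181a-1 took 5.67 ± 0.282% of its set over 56 libraries at 2 months, 3.62 ± 0.445% over 48 libraries at 6 months without WT and 5.80 ± 0.431% over 56 at 10 months. Mir181a-2 took 87.3 ± 0.475%, 91.4 ± 0.539% and 87.6 ± 0.665% at these ages. At 6 months the share of Mir181a-1 was 3.45 ± 0.212% in Q20 and 4.15 ± 0.627% in Q175, and 6 of 8 Q175 libraries lay above the highest Q20 library. Mir181b-2 took 17.8 ± 2.38% of its set at 2 months, 12.2 ± 0.829% at 6 months and 19.1 ± 1.86% at 10 months. No sequencing run is named in the labels, and the part of runs in these shares or in any comparison of ages was not tested. The summed neuronal markers also differed between ages, with a Q20 median of 87281 CPM at 6 months beside 102184 CPM in the younger and 112269.9 CPM in the older Q20 mice.

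**Figure D4:**
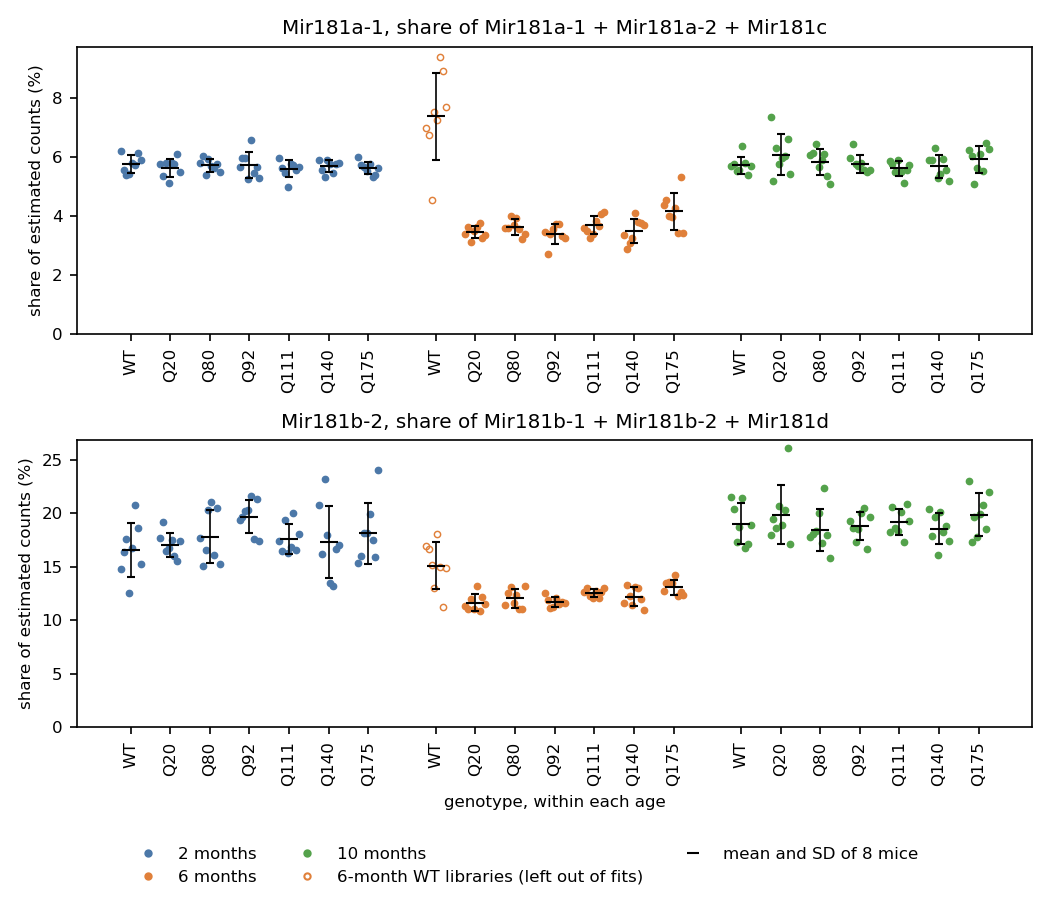
Share of the estimated counts of its read-sharing set (y axis, %) taken by Mir181a-1 (upper panel) and Mir181b-2 (lower panel) in each mouse, by genotype within each age (x axis), with the mean and SD of 8 mice. The 6-month points of Mir181a-1 centre on 3.62%, below the 5.67 and 5.80% at 2 and 10 months, and the open circles of 6-month WT libraries reach up to 9.39%.

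Control mice of 10 months, which have no long CAG allele, were compared with those of 2 months. The labels name no sequencing run, so age and any difference in run between the ages cannot be told apart. The cage codes also differ between the ages, so age and cage cannot be told apart. The 10-month controls were also part of the contrast that chose the loci, so these tests are not wholly independent of that choice. Mir181b-2 was higher at 10 months, and Mir181a-1 was higher by a smaller amount. Mir181b-2 rose from 857 to 1309 CPM (median 1168, n = 16) at 2 months to 1200.2 to 1823 CPM (median 1503, n = 16) at 10 months, and 13 of 16 older controls lay above all younger ones. Its log2 difference was 0.39 (SE 0.058), with an edgeR adjusted p of 1.3e-06. Mir181a-1 rose from a median of 6041 CPM to 6464 CPM, a log2 difference of 0.12 (SE 0.038) with an edgeR adjusted p of 0.0094, and 5 of 16 older controls lay above all younger ones. Mir181a-2 had a median of 90600.3 CPM at 2 months and 99209 CPM at 10 months, and its difference of 0.076 (SE 0.042) was not called, with an edgeR adjusted p of 0.137. Of the 3 loci, 2 were called here, in a comparison that called 49.4% of 328 microRNAs, 26.2% as higher and 23.2% as lower, with quartiles of -0.24 and 0.20 on the log2 scale.

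Among the other loci, Mir181b-1 was higher at 10 months by 0.19 (SE 0.051) and Mir181d lower by 0.17 (log2 difference -0.17, SE 0.038), with edgeR adjusted p of 0.0023 and 3.1e-04, while Mir181c differed by 0.00070 (SE 0.039) and was not called. The sum of Mir181b-1, Mir181b-2 and Mir181d was higher by 0.17 (SE 0.041, edgeR adjusted p = 8.9e-04), where Mir181b-2 alone gave 0.39. The sum of Mir181a-1, Mir181a-2 and Mir181c was not called, with 0.065 (SE 0.042, edgeR adjusted p = 0.204). The call of Mir181a-1 was also lost with Q20 mice alone, with the library size alone, with a filter on low counts and with all transcripts as features.

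The log2 ratio of Mir181a-1 to Mir181a-2 within a library does not depend on the scaling. It averaged -3.94 ± 0.084 in 16 controls at 2 months and -3.89 ± 0.14 in 16 controls at 10 months. Shuffled ages often gave a difference as large as the 0.044 seen (two-sided permutation test, 100000 resamples, p = 0.302). It was 0.11 in Q20 mice alone and -0.019 in WT mice alone.

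WT mice were compared with Q20 mice, since the 2 genotypes are pooled as controls. At 2 months the log2 difference of WT from Q20 was -0.00029 for Mir181a-1 (interval of ± 2 SE, -0.12 to 0.11), -0.039 for Mir181a-2 (-0.15 to 0.070) and -0.092 for Mir181b-2 (-0.25 to 0.066). None was called, with edgeR adjusted p of 0.997, 0.888 and 0.882, and 0.0% of 326 microRNAs passed the threshold by edgeR or DESeq2 while 4.29% had an unadjusted p under 0.05. At 10 months it was -0.033 (SE 0.049) for Mir181a-1, 0.048 (SE 0.056) for Mir181a-2 and -0.00070 (SE 0.078) for Mir181b-2, with edgeR adjusted p of 0.876, 0.833 and 0.999. There 0.0% of 325 were called and 3.69% had an unadjusted p under 0.05. The 10-month mice of both genotypes also entered the values that chose the loci. Their tests, and that of the change between ages given next, are thus not wholly independent of that choice. The change of the WT to Q20 difference between the ages was not called for any of the 3 loci either, with edgeR adjusted p of 0.921, 0.845 and 0.919 for the interaction, a fit in which 0.0% of 328 microRNAs were called and 5.49% had an unadjusted p under 0.05.

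Females and males were compared over all genotypes of an age. At 2 months the medians were 6206 CPM in 28 females and 6176 CPM in 28 males for Mir181a-1, 92204 and 94070.5 CPM for Mir181a-2, and 1196 and 1200.2 CPM for Mir181b-2. None of the 3 loci was called at any age by edgeR. Of the microRNAs tested, 0.612% of 327 were called at 2 months, 0.0% of 327 at 6 months and 0.305% of 328 at 10 months, and an unadjusted p under 0.05 was found for 7.34%, 9.79% and 6.71% of them in the same order. The adjusted p of the loci lay between 0.388 and 0.996. The largest difference was that of Mir181b-2 at 6 months, with a median of 1176 CPM in 24 females and 1114 CPM in 24 males. Its log2 difference was 0.071 (SE 0.032), with an edgeR adjusted p of 0.388.

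The pattern of each locus over 160 libraries was set beside that of 217 other microRNAs with a mean of at least 10 CPM, after subtracting the mean of each age and library code. The most alike of the non-members were family loci for Mir181a-2, with Pearson's r of 0.73 for Mir181c, 0.69 for Mir181b-1 and 0.50 for Mir181d. For Mir181a-1 they were Mir181d (r = 0.48), Mir30a (0.46) and Mir9-2 (0.46), and for Mir181b-2 they were Mir30c-2 (0.53), Mir148b (0.48) and Mir541 (0.48). Among themselves, Mir181a-1 and Mir181a-2 had an r of 0.60, Mir181a-2 and Mir181b-2, which lie in 1 cluster, 0.58, and Mir181a-1 and Mir181b-2 0.52. Mir181a-1 and its cluster neighbour Mir181b-1 had an r of 0.35, below that of Mir181a-1 with the more distant Mir181a-2. All points share their library and its scaling, and loci of a read-sharing set also share reads, so these values are descriptions.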

How the data were processed

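Small RNA of cortex was sequenced from 168 mice, 8 in each of 21 groups. The authors clipped and aligned the reads and deposited estimated counts by transcript and library, not normalized. Their methods name a counter of whole reads, but many deposited counts are not whole, so reads had been divided between transcripts. The submitters' processing notes name CASAVA 1.8.2. The FPKM table was left unused, since it holds the same libraries after normalization. Library totals ranged from 2041741 to 11646287 counts. That the mice of a group are separate animals is taken from the labels.

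The estimated counts were rounded and fitted with edgeR 4.0.16 in R 4.3.3 (TMM, robust quasi-likelihood F test, two-sided) over the microRNAs of the study's list with at least 1 count. Sex was a covariate, and so was the V or LB code of the name at 6 months. In 2 libraries the sex follows the cage, which differs from the label. Q was CAG length divided by 100. Benjamini-Hochberg adjustment ran over all microRNAs tested, at an FDR of 0.05. An SE is the coefficient over the root of its F statistic. The 6-month WT libraries entered 1 alternative. Fits were tested on simulated counts.

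The loci, lists and comparisons were chosen with earlier results of these data known, so mutant genotypes at 6 and 10 months carry no p. The text names the 3 loci, the other Mir181 loci of the table and, for each, the 3 other microRNAs with the highest Pearson correlation of log2 CPM (prior count 0.5). Symbols came from GENCODE vM21, which named 1228 transcripts, and 329 of the 480 listed microRNAs matched. Alternatives were other normalizations (RLE, library size), filters, features, no rounding, DESeq2 1.42.0, summed loci, other covariates, controls and codes, and a replicate block. The summed read-sharing sets and the fits without single libraries were added after seeing the data. The ratio of loci was tested by permutation in scipy 1.17.1 with 100000 resamples.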

Additional observations from a re-analysis of the deposited data

Results flagged for a closer look

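In 63 checks of 3 loci in 21 groups of 8 mice, 8 values from 6 mice lay farther from the rest than Dixon's critical value allows, where chance flags about 1 check in 20. At 10 months, 1 Q140 female had the highest level of its group for both Mir181a-1 (9958 CPM, the other 7 at 6448 to 7178) and Mir181b-2 (2088 CPM, the others at 1355 to 1569), and also the highest Mir181a-2 at 150546 CPM. At the same age 1 Q111 male had the lowest level of its group for Mir181a-1 (5137 CPM, the others at 6523 to 7663) and Mir181b-2 (1225 CPM, the others at 1486 to 1661). For Mir181b-2, 1 Q175 female at 10 months stood high with 1843 CPM beside 1568 to 1672 CPM in the others, and 1 Q175 male at 2 months with 1928 CPM beside 1016 to 1280.4 CPM. For Mir181a-2, 1 Q92 female at 6 months stood high with 161727 CPM beside 112703 to 129625 CPM. These libraries held 4569613 to 5753948 counts, inside the range of the series. Without the Q140 female, the log2 change per 100 CAG repeats at 10 months was 0.12 for Mir181a-1, 0.14 for Mir181a-2 and 0.063 for Mir181b-2.

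The 8 libraries labelled 6-month WT, which the comparisons leave out, had a mean of 10370.0 CPM (SD 2731) for Mir181a-1, above the 4605 CPM (SD 169.7) of Q20 at that age, and 7 of 8 lay above the highest Q20 library. The exception was 1 female at 4783 CPM, low beside the other 7 at 9570.0 to 14466 CPM. Mir181c was also higher in the 8 libraries, with a median of 12088 CPM beside 6736 CPM in Q20, and 7 of 8 lay above the highest Q20 library. Their Mir181a-2 levels (93805 to 138776 CPM) overlapped those of Q20, while Mir181b-1 (3959 to 5314 CPM) and Mir181d (528.3 to 938.5 CPM) lay below the Q20 range of 6733 to 7949.9 and 1037 to 1164 CPM. Mir181a-1 took 7.38 ± 1.47% of its read-sharing set in them, against 3.45 ± 0.212% in Q20. All 8 carry the L code L3, which 3 of the 8 Q20 libraries also carry. The cause was not tested.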

How the results depend on the processing

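The loci were followed under 19 alternatives listed in advance and 7 added after seeing the data. A tested value counted as the same if it kept its direction and side of the threshold, and its size was not compared. A described value counted as the same if it kept its direction and moved by less than the control SD. By these rules 398 values of the loci were the same, 32 changed sign, 9 moved by that SD or more and 6 lost their call. Of the counts of microRNAs called, 83 stayed within 1.5 times the main count. In the summed alternatives, the value of the sum stood in for each of its loci, in these counts and in the ranges below. The age difference of Mir181b-2 was called in 11 of 11 alternatives, with an adjusted p of at most 0.0058. Its values ran from 0.17, which is that of its summed set, to 0.39. That of Mir181a-1 (0.12) lost its call with the library size alone (0.051, adjusted p = 0.238), filterByExpr (0.070, 0.073), all transcripts (0.080, 0.153), the Mir181a loci summed (0.070, 0.146), the read-sharing sets summed (0.065, 0.204) and Q20 as the only controls (0.099, 0.191). With Q20 alone the age difference of Mir181a-2 was -0.0035. At most 212 microRNAs were called for age, against 162.

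At 6 months, the difference of Q175 for Mir181a-1 (0.31) was 0.25 with all transcripts, 0.078 with the Mir181a loci summed, 0.069 with its set summed, 0.093 with its set summed against the Q80 libraries and -0.46 with 6-month WT among the controls. That of Mir181b-2 (0.21) was 0.029 with its set summed and 0.070 with its set summed against the Q80 libraries. The change of Mir181a-1 per 100 CAG repeats (0.13) was 0.050 and 0.048 with the summed loci and set, 0.037 without the Q175 mice and -0.39 with 6-month WT. The cause was not tested. At 10 months, the Q175 differences stayed between 0.21 and 0.24 for Mir181a-1, 0.21 and 0.26 for Mir181a-2, and 0.10 and 0.14 for Mir181b-2. Without its high female, Q140 gave -0.0062 for Mir181b-2 (0.071 with it).

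The other changes of sign were in differences that were not called. With the L code as covariate, Q at 2 months gave -0.015 for Mir181a-1 and -0.011 for Mir181a-2. For Q175 at 2 months, Mir181a-1 gave -0.0054 with the library size alone, -0.0010 with all transcripts, -0.041 with the L code, -0.0058 with Q20 alone and -0.038 without the high male, and Mir181a-2 gave -0.057 with the L code, -0.0046 with Q20 alone and -0.019 without that male. WT against Q20 at 2 months gave 0.012 for Mir181a-1 with filterByExpr. At 10 months it gave 0.039, 0.041 and 0.013 for Mir181a-1 with the summed loci, the summed set and the L code, and 0.0020, 0.054 and 0.049 for Mir181b-2 without rounding, with the summed set and with the L code. The sex difference of Mir181a-2 at 2 months was 0.0057 with the library size alone, 0.00011 without rounding and 0.0068 with the sex of the labels. That of Mir181a-1 at 6 months was 0.035 and 0.028 with the summed loci and set, and that of Mir181b-2 at 10 months was -0.0018 with the library size alone and -0.00083 with filterByExpr. The log2 ratio of Mir181a-1 to Mir181a-2 changed by -0.019 in WT alone. For sex at 6 months, 2 microRNAs were called with the library size alone, 1 with all transcripts and 1 with DESeq2, against 0. At 10 months, 2 were called with all transcripts and 2 with the sex of the labels, against 1.

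Mice with the same replicate number did not deviate together, with a mean r of -0.016, -0.015 and 0.012 over 162, 120 and 162 pairs at 2, 6 and 10 months, so they share only a number. With the replicate block, 5 microRNAs were called for sex at 6 months and 2 at 10 months, and 3 uncalled values of the loci changed sign, that of Mir181a-1 for WT against Q20 at 2 months (0.00031), of Mir181b-2 for the same at 10 months (0.0015) and of Mir181a-2 for sex at 2 months (0.0072).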
